A study of Homo sapiens with 6 samples.

Results

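The extracellular matrix genes described here are 42 human genes for collagens, matrix glycoproteins, proteoglycans and the enzymes that cut or crosslink the matrix. They were chosen by name, with earlier results of these data known. Only probe sets that exceeded a signal of 100 (log2 value 6.64) on at least 1 of 6 arrays were kept. The platform assigned 136 probe sets to these genes, of which 53 probe sets of 28 genes were kept, out of 16397 kept probe sets and 8878 genes with a kept probe set in the whole series. The arrays held RNA of KHOS and U-2OS, established human osteosarcoma cell lines. Each line was transfected with siRNA against CDK11, a cyclin-dependent kinase, or with nonspecific siRNA, each at 40 nM, or was left untransfected. Each array carried pooled RNA of 3 flasks, which leaves 1 array for each condition in each line and no replicate within a line. The values are log2 signals on Affymetrix arrays normalized with gcrma, a method that adjusts for background and brings the arrays to a common distribution. Pooled RNA of bulk cells was measured, so fewer cells that express a gene and less RNA per cell cannot be told apart.

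The matrix is built from collagens, which form fibrils, sheets and filaments, and from glycoproteins such as fibronectin, fibrillins and laminins that bind cells to them. Matrix metalloproteinases (MMPs) cut these proteins, tissue inhibitors of metalloproteinases (TIMPs) block the MMPs, and the lysyl oxidases crosslink collagen and elastin. Bone matrix consists largely of type I collagen, and osteosarcoma is defined by tumour cells that lay down osteoid, the unmineralized form of this matrix.

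The normalization brings the arrays to a common level, so their alike medians, between 2.92 and 2.98, do not check whether they are comparable. Between 24.8% and 25.9% of all 54675 probe sets were above the limit. Over the kept probe sets the medians were 8.71 to 8.72 in KHOS and 8.54 to 8.58 in U-2OS. The brightest probe set assigned to CDK11A and CDK11B was left at 20.6% of the nonspecific siRNA signal in KHOS and at 16.0% in U-2OS. Of 13 osteoblast markers, 11 had a probe set assigned to them alone and 2 had a kept one. RUNX2, the transcription factor of the lineage, was higher in KHOS by 4.08 log2 units (limma adjusted p = 0.00214). Untransfected cells read 9.51 for RUNX2 in KHOS and 7.03 in U-2OS. On the transfected U-2OS arrays it was under the limit, at 5.68 with CDK11 siRNA and 4.39 with nonspecific siRNA. TNFRSF11B did not pass, at 0.74 (adjusted p = 0.0736). Of the markers without a kept probe set, SPP1 or osteopontin read 5.52, 3.36 and 4.85 with CDK11 siRNA, nonspecific siRNA and untransfected in KHOS, against 6.58, 6.62 and 6.01 in U-2OS. MSX2 went the other way, with 6.55, 6.23 and 6.09 in KHOS, against 4.32, 4.46 and 5.16 in U-2OS. ALPL, SP7 and IBSP were near 3.0 or lower on all 6 arrays. As log2 of the summed signal, the osteoblast markers ran from 10.2 to 11.2 over the KHOS arrays and from 8.96 to 9.46 over those of U-2OS. Mesenchymal markers were kept for 6 of 8 genes, with sums of 15.6 to 15.7 in KHOS and 14.6 to 14.7 in U-2OS that VIM dominated. Of these 6, 2 were higher in KHOS, NT5E by 9.86 and VIM by 0.80, and 2 were lower, TAGLN at -5.43 and THY1 at -5.29. Epithelial markers were kept for 3 of 9 genes, KRT8, KRT18 and EPCAM, with sums of 13.6 to 13.8 in KHOS and 13.7 to 14.0 in U-2OS. These near-equal sums hide opposite differences. EPCAM was higher in KHOS by 3.33, KRT8 was lower, at -4.12, and KRT18 did not pass, at 0.14. CDH1 was at or below 2.43 on every array. No endothelial marker (of 6) and no blood cell marker (of 8, 6 of them with a probe set assigned to them alone) had a kept probe set.

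Promoter sequences are shown for some of the matrix genes, which are not those with the largest differences. The first stretch separates the starts of COL4A1 and COL4A2, the chains of the basement membrane collagen, which are read away from each other and were both lower in KHOS. The others are the 250 bases before the start of TIMP3, MMP14 and THBS1, the genes with more than 1 probe set beyond 3 SD in the siRNA comparisons, chosen after those values were seen. Genes with a single kept probe set, such as MMP1 and MMP3, could not meet this rule. All are plus strand sequences from RefSeq on GRCh38.p14, at chr13:110307158-110307283 for the collagen pair, chr22:32801455-32801704 for TIMP3, chr14:22836335-22836584 for MMP14 and chr15:39580829-39581078 for THBS1. Capitals mark GGGCGG and CCAAT on either strand.
COL4A1-COL4A2: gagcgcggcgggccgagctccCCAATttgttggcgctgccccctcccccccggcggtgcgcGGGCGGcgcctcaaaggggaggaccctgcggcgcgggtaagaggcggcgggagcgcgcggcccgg
TIMP3: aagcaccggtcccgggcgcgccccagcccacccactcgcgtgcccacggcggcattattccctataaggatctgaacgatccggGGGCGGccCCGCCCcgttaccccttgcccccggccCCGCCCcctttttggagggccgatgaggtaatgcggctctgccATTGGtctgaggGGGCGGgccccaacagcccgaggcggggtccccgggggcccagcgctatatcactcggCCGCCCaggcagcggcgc
MMP14: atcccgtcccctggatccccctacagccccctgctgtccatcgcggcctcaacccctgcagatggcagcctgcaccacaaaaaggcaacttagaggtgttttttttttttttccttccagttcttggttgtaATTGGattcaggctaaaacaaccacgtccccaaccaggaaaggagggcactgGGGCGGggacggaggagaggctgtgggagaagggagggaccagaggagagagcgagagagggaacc
THBS1: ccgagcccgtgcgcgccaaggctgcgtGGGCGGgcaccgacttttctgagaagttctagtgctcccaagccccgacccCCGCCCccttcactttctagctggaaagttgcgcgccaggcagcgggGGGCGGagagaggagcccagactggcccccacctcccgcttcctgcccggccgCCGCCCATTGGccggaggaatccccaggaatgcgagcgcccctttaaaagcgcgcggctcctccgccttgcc
The 126 bases between COL4A1 and COL4A2 have a GC content of 80.2% and hold 1 GGGCGG and 1 CCAAT. The TIMP3 promoter holds 5 matches to GGGCGG, that of THBS1 4 and that of MMP14 1, and each holds 1 CCAAT match. In THBS1 a GGGCGG match on the minus strand runs directly into a CCAAT match without sharing a base. The promoter table held 33 starts of 28 of the 42 genes, and none of MMP1, MMP2, MMP3 or COL5A2. These are not the 28 genes with a kept probe set, since they include BGN, VCAN and POSTN, which had none. GGGCGG was found in the 250 bases before 75.8% of the 33 starts, against 42.6% of all 35116 starts. For CCAAT the shares were 36.4% and 32.0%, for TATAAA 18.2% and 10.7%, and for TGANTCA, the motif bound by AP-1, 6.06% and 6.57%, each counted on both strands. The median GC content was 68.8% for the matrix starts and 58% for all starts. These matches are letters in a window and were not read as binding sites.

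The first comparison asked how the matrix genes differ between KHOS and U-2OS. By the brightest probe set of each gene, the largest differences were those of MMP3, FBN2 and COL12A1, with signals in U-2OS and values under the limit in KHOS, and of PLAU and COL5A2, which were higher in KHOS. Of the 53 probe sets, 41 passed the limma test between the lines (Benjamini-Hochberg adjusted p under 0.05), which is 77.4% of them. The test passed 72.1% of all kept probe sets, 39.6% higher and 32.6% lower in KHOS, so a call alone says little about a gene. Among the matrix probe sets 26 were higher and 15 lower in KHOS. Differences beyond 2 log2 units were found for 21 of the 53, or 39.6%, against 16.0% of all kept probe sets. The median absolute difference was 1.64 for the matrix probe sets and 0.74 for all. A probe set passes the filter through the line in which it is high, so genes expressed in 1 line are among the kept ones by the rule. The matrix genes were also chosen with earlier results of these data known, so what their larger differences owe to that choice cannot be told. The test used the spread of the line difference over the 3 transfection states.

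By the brightest kept probe set of each gene, 14 matrix genes were higher in KHOS, 11 were lower and 3 did not pass, where 38.1% of all genes were higher and 33.0% were lower. Signals were above the limit in both lines for 20 genes, in KHOS alone for COL5A2, COL7A1, FBN1 and MMP14, and in U-2OS alone for COL12A1, FBN2, MMP2 and MMP3. A further 14 genes had no kept probe set, namely COL1A2, COL3A1, COL6A2, COL8A1, COL11A1, FBLN5, LAMA4, THBS2, POSTN, LUM, DCN, BGN, VCAN and ADAMTS1. Their highest values on any array were between 2.5 for FBLN5 and 5.97 for VCAN. All 4 proteoglycans were in this last group. Just outside the limit lay probe sets of MMP14 at 6.53 and of TIMP2 at 6.64, and just inside it those of COL13A1 at 6.83 and COL6A1 at 7.08. For a gene under the limit in 1 line the difference is given in log2 units without a fold.

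**Figure D1:**
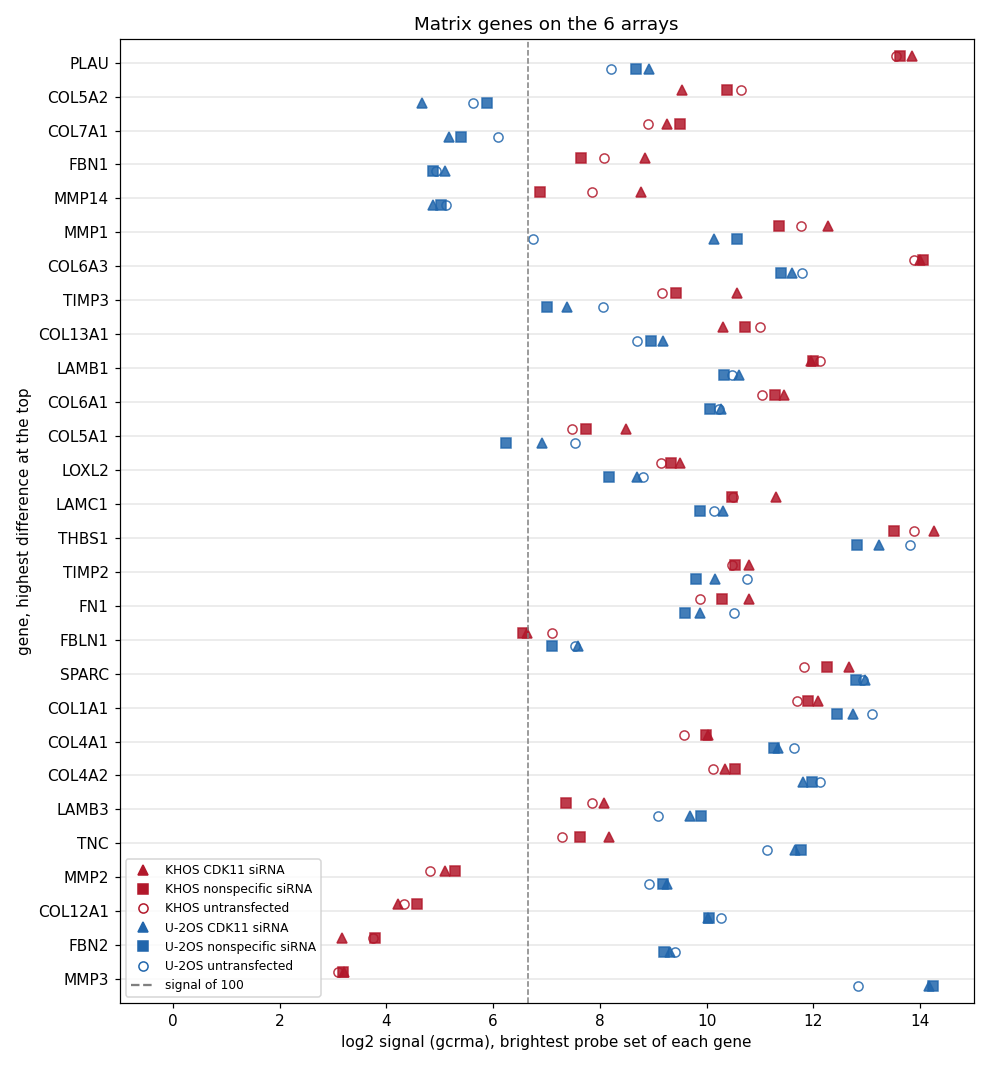
Log2 signal (horizontal axis) of the brightest kept probe set of 28 matrix genes on 6 arrays, with KHOS in red and U-2OS in blue, triangles for CDK11 siRNA, squares for nonspecific siRNA and open circles for untransfected cells; the dashed line is a signal of 100. MMP3 stands at 3.09 to 3.20 in KHOS and 12.83 to 14.24 in U-2OS, and the open circle of MMP1 in U-2OS stands apart from the other arrays of that line.

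Among the fibrillar collagens, 3 of 6 genes had a kept probe set, and 1 was higher, 1 lower and 1 not past the test. COL5A2, a chain of type V collagen that joins type I fibrils, was higher in KHOS. Its log2 signal was 9.54 with CDK11 siRNA, 10.37 with nonspecific siRNA and 10.65 untransfected in KHOS, against 4.67, 5.89 and 5.61 on the same arrays of U-2OS. No array of U-2OS came near the KHOS values, and the difference was 4.80 ± 0.14 (limma SE, adjusted p = 3.08e-05). A second probe set gave 4.10. The partner chain COL5A1 differed less, with 8.48, 7.75 and 7.48 in KHOS, against 6.90, 6.24 and 7.53 in U-2OS, in the same sequence of arrays. Here the lines overlapped, since untransfected U-2OS cells stood above untransfected KHOS cells. The difference of 1.01 did not pass (adjusted p = 0.0534) but a second probe set passed with 1.28 (adjusted p = 0.0229). Without the untransfected array of either line the brightest probe set passed too, with 1.54 (adjusted p = 0.00115).

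COL1A1, the main chain of type I collagen, was well above the limit in both lines by its brightest probe set alone. Its brightest probe set read 12.09 with CDK11 siRNA, 11.89 with nonspecific siRNA and 11.69 untransfected in KHOS, against 12.73, 12.44 and 13.10 in U-2OS. Every KHOS value was below every U-2OS value, by a difference of -0.87 ± 0.20 (adjusted p = 0.0142). The other 2 kept probe sets did not pass, at -0.84 and -0.06. The first read 6.41, 6.36 and 5.89 in KHOS, under the limit, against 7.01, 6.54 and 7.65 in U-2OS. The second read between 7.15 and 7.49 over the arrays. COL1A1 probe sets that were not kept reached no more than 6.39 on any array. COL1A2, which encodes the other chain of type I collagen, had 3 probe sets, none above 2.65 on any array. COL3A1, a neighbour of COL5A2 on chromosome 2 with no protein-coding gene between them, was not above 3.44 on any array in its 5 probe sets.

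The basement membrane collagens COL4A1 and COL4A2 were both lower in KHOS. COL4A1 read 10.03, 9.99 and 9.58 on the CDK11 siRNA, nonspecific siRNA and untransfected arrays of KHOS, against 11.33, 11.26 and 11.63 on those of U-2OS. For COL4A2 the values were 10.34, 10.53 and 10.11 in KHOS, against 11.80, 11.98 and 12.13 in U-2OS. The lines did not overlap for either gene. The differences were -1.54 ± 0.19 for COL4A1 (2.91-fold, adjusted p = 0.00165) and -1.64 ± 0.15 for COL4A2 (3.12-fold, adjusted p = 0.000683). A second COL4A1 probe set gave -1.76.

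Of the other 7 collagens, 5 had a kept probe set, 4 higher and 1 lower in KHOS. COL6A3 is a chain of the beaded filaments around cells. It read 14.00 with CDK11 siRNA, 14.06 with nonspecific siRNA and 13.89 untransfected in KHOS, against 11.59, 11.39 and 11.78 in U-2OS, a difference of 2.39 ± 0.14 (5.26-fold, adjusted p = 0.000181). COL6A1 of the same filament read 11.45, 11.28 and 11.04 in KHOS, against 10.26, 10.06 and 10.23 in U-2OS, a difference of 1.07 ± 0.13 (adjusted p = 0.00141). The filament chains with a kept probe set were thus higher in KHOS, while COL6A2, the neighbour of COL6A1 on chromosome 21, stayed at or below 4.35 in its 2 probe sets.

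COL7A1, which forms the anchoring fibrils under epithelia, was above the limit in KHOS alone. Its values were 9.25, 9.50 and 8.89 with CDK11 siRNA, nonspecific siRNA and untransfected in KHOS, against 5.17, 5.39 and 6.09 in U-2OS, a difference of 3.67 ± 0.29 (adjusted p = 0.000433). A dimmer COL7A1 probe set gave 1.97. COL13A1, a transmembrane collagen, read 10.32, 10.72 and 11.00 in KHOS, against 9.18, 8.96 and 8.70 in U-2OS. Its difference of 1.73 ± 0.24 (3.32-fold, adjusted p = 0.00238) was larger than those of its dimmer probe sets, 0.70, which passed, and 0.94, which did not.

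COL12A1 was lower in KHOS and runs against the other 4. It encodes a collagen on the surface of fibrils and read 4.22 with CDK11 siRNA, 4.58 with nonspecific siRNA and 4.33 untransfected in KHOS, against 10.02, 10.04 and 10.26 in U-2OS. The KHOS values were under the limit on every array, and the difference was -5.73 ± 0.13 (adjusted p = 1.71e-05), with -5.91 for a second probe set.

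The fibrillins, which form the microfibrils that carry elastin, were opposed. FBN1 read 8.84 with CDK11 siRNA, 7.64 with nonspecific siRNA and 8.08 untransfected in KHOS, against 5.09, 4.86 and 4.93 in U-2OS. FBN2, a form used early in development, read 3.17, 3.79 and 3.74 in KHOS, against 9.32, 9.20 and 9.41 in U-2OS. Each line thus had 1 fibrillin above the limit. The differences were 3.22 ± 0.21 for FBN1 (adjusted p = 0.000235) and -5.74 ± 0.17 for FBN2 (adjusted p = 3.10e-05), in a single kept probe set each.

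Fibronectin, FN1, which links collagens to integrins, did not pass the test in any of its 4 probe sets, with differences between 0.16 and 0.36. Without the untransfected array of either line its brightest probe set passed, at 0.80 (adjusted p = 0.00778). FBLN1, a fibulin of microfibrils and basement membranes, read 6.64, 6.56 and 7.10 with CDK11 siRNA, nonspecific siRNA and untransfected in KHOS, against 7.58, 7.09 and 7.53 in U-2OS. Its values lay close to the limit and the lines overlapped slightly, at a difference of -0.64 ± 0.14 (adjusted p = 0.0113).

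Laminins are the heterotrimers of basement membranes, and 3 of 4 chains were kept, 2 higher and 1 lower in KHOS by the brightest probe set. LAMB1 read 11.96, 11.99 and 12.12 on the CDK11 siRNA, nonspecific siRNA and untransfected arrays of KHOS, against 10.60, 10.32 and 10.47 on those of U-2OS, a difference of 1.56 ± 0.11 (2.95-fold, adjusted p = 0.000333). LAMB3, a chain of the laminin under epithelia, read 8.08, 7.36 and 7.85 in KHOS, against 9.68, 9.90 and 9.10 in U-2OS, a difference of -1.80 ± 0.27 (3.47-fold, adjusted p = 0.00307). These beta chains differed in opposite directions with no overlap between the lines. LAMC1 has no settled direction, since its brightest probe set was higher in KHOS by 0.65 (adjusted p = 0.0144) and the other lower, at -0.61 (adjusted p = 0.0100).

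The matricellular proteins modulate how cells bind the matrix, and 3 of 5 were kept. TNC, the adhesion-modulating tenascin-C, was lower in KHOS, with 8.17, 7.62 and 7.28 on the CDK11 siRNA, nonspecific siRNA and untransfected arrays of KHOS and 11.66, 11.77 and 11.13 on those of U-2OS. The difference was -3.83 ± 0.16, or 14.2-fold (adjusted p = 7.08e-05). SPARC, a collagen-binding protein of bone also called osteonectin, was high in both lines, with 12.66, 12.26 and 11.82 in KHOS, against 12.97, 12.80 and 12.93 in U-2OS. It was lower in KHOS on each of the 3 kinds of array, at -0.65 ± 0.18 (adjusted p = 0.0258), and the second probe set gave -0.59. Without the untransfected array of either line the SPARC difference was -0.42 and did not pass (adjusted p = 0.0517), and without either nonspecific siRNA array it did not pass either (adjusted p = 0.0697).

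THBS1, the antiangiogenic thrombospondin-1, was bright in both lines. Its brightest probe set read 14.25 with CDK11 siRNA, 13.52 with nonspecific siRNA and 13.89 untransfected in KHOS, against 13.23, 12.82 and 13.81 in U-2OS. The lines overlapped, and the difference of 0.60 ± 0.20 was near the threshold (adjusted p = 0.0465). It did not pass when each array was centred on its median (0.45, adjusted p = 0.0996), nor without either CDK11 siRNA array (0.39, adjusted p = 0.173) or either nonspecific siRNA array (0.55, adjusted p = 0.153). The other THBS1 probe sets, at 0.90 and 0.63, did not pass.

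Among the enzymes and their inhibitors, 8 of 9 genes were kept, 5 higher and 2 lower in KHOS. The collagenase MMP1 and the stromelysin MMP3 lie next to each other on chromosome 11 and differed in opposite directions. MMP3, which cuts proteoglycans and fibronectin and activates other MMPs, read 3.20 with CDK11 siRNA, 3.19 with nonspecific siRNA and 3.09 untransfected in KHOS, against 14.17, 14.24 and 12.83 in U-2OS. KHOS values were close to the median of the array and U-2OS values far above the limit. The difference of -10.59 ± 0.29 (adjusted p = 2.62e-05) was the largest of all 53 probe sets.

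MMP1, which cuts fibrillar collagen, was higher in KHOS on each of the 3 kinds of array. It read 12.28 with CDK11 siRNA, 11.36 with nonspecific siRNA and 11.77 untransfected in KHOS, against 10.14, 10.57 and 6.75 in U-2OS. The low value was that of untransfected U-2OS cells, and the difference of 2.65 ± 0.81 (adjusted p = 0.0351) depended on it. Without the untransfected array of either line it was 1.47 (adjusted p = 0.0229), and without either CDK11 siRNA array it was 2.90 and did not pass (adjusted p = 0.0868).

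The gelatinase MMP2 and its membrane-bound activator MMP14 were also opposed. MMP2 read 5.09 with CDK11 siRNA, 5.28 with nonspecific siRNA and 4.82 untransfected in KHOS, against 9.25, 9.18 and 8.92 in U-2OS, a difference of -4.06 ± 0.11 (adjusted p = 2.32e-05). MMP14 read 8.77, 6.87 and 7.86 in KHOS, against 4.87, 5.02 and 5.11 in U-2OS, a difference of 2.83 ± 0.40 (adjusted p = 0.00253). Its other 2 probe sets gave 5.41 and 3.46, both past the test. TIMP2, which blocks MMPs and takes part in the activation of MMP2 by MMP14, did not pass in either probe set, with differences of 0.36 and 0.23. Without the untransfected array of either line its brightest probe set passed, at 0.68 (adjusted p = 0.0105).

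PLAU, the urokinase that turns plasminogen into plasmin, was the gene with the largest difference in favour of KHOS. It read 13.84 with CDK11 siRNA, 13.62 with nonspecific siRNA and 13.55 untransfected in KHOS, against 8.92, 8.67 and 8.21 in U-2OS. The difference was 5.07 ± 0.13, or 33.7-fold (adjusted p = 2.13e-05), and 6.25 for the second probe set. TIMP3, an inhibitor that is bound to the matrix, was higher in KHOS in all 4 probe sets. Its brightest read 10.57, 9.42 and 9.17 with CDK11 siRNA, nonspecific siRNA and untransfected in KHOS, against 7.38, 7.01 and 8.06 in U-2OS, a difference of 2.24 ± 0.40 (4.71-fold, adjusted p = 0.00610). The others gave 4.74, 3.06 and 3.07, with U-2OS values under the limit. LOXL2, a lysyl oxidase, read 9.51, 9.33 and 9.15 in KHOS, against 8.69, 8.17 and 8.81 in U-2OS, a difference of 0.77 ± 0.18 (adjusted p = 0.0145). Its lines did not overlap, but LOXL2 did not pass without either nonspecific siRNA array (0.58, adjusted p = 0.0580) or either CDK11 siRNA array (0.75, adjusted p = 0.0634).

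**Figure D2:**
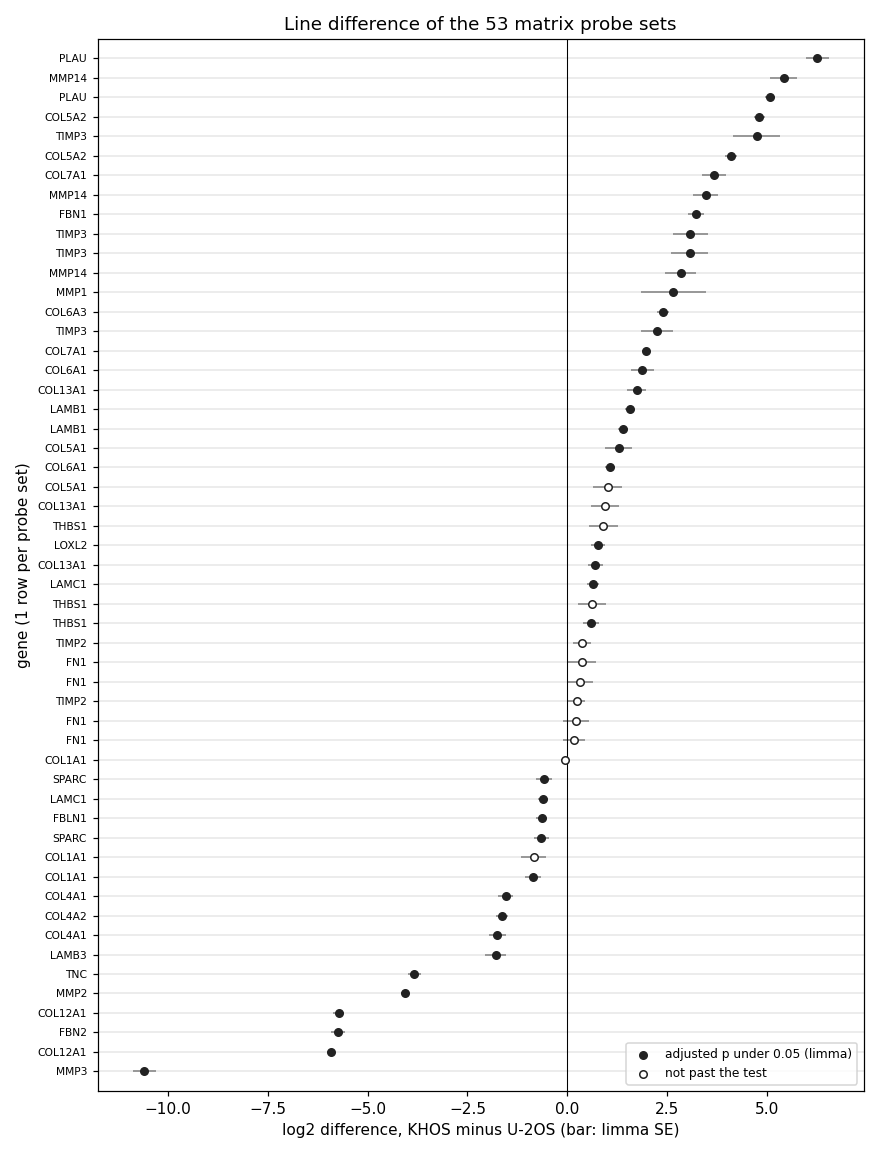
Log2 difference of KHOS minus U-2OS (horizontal axis, bars are the limma SE) for the 53 kept matrix probe sets, 1 row each, with filled points for adjusted p under 0.05. The differences run from -10.59 for MMP3 to 6.25 for a PLAU probe set, and probe sets of FN1 and TIMP2 lie near 0 as open points.

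The other matrix genes of the array, in 4 lists, were read in the same way by their brightest probe set. Of 28 other collagens 3 were kept, with 1 higher and 2 lower in KHOS. COL18A1, the source of endostatin, was higher by 2.08, and COL16A1 and COL27A1 were lower, at -4.11 and -0.53. Of 31 genes for collagen folding, processing and crosslinking 23 were kept, with 4 higher and 12 lower. PCOLCE, an enhancer of procollagen cleavage, and the lysyl oxidase LOX were higher by 1.60 and 0.74, and P4HA2, a prolyl hydroxylase of collagen, and PCOLCE2 were lower, at -3.95 and -3.42. Of 58 other glycoproteins and proteoglycans 22 were kept, with 6 higher and 11 lower. LAMA5 and EDIL3 were higher by 2.43 and 2.42, and LAMA1 and CCN3 lower, at -8.99 and -6.35. The EDIL3 difference had a limma SE of 0.79 (adjusted p = 0.0428), and its untransfected values were close, at 8.19 in KHOS and 7.84 in U-2OS. Of 43 other proteases and inhibitors 21 were kept, with 3 higher and 9 lower. The collagenase MMP13 and the membrane protease ADAM8 were higher by 4.48 and 3.62, and MMP19 and FAP lower, at -3.30 and -2.72. The median differences of the lists were -0.53, -0.69, -0.56 and -0.38, where the 28 matrix genes had 0.63 and all 8878 genes 0.0724, also by the brightest probe set. Matrix genes and lists were chosen with earlier results known, so what these medians owe to that choice cannot be told.

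The second comparison asked what CDK11 siRNA did within each line. No p-value can be had from 1 array against 1 array, so a difference was counted when it lay beyond 3 SD of the mean over all kept probe sets, the threshold of the study's methods. CDK11 siRNA and nonspecific siRNA share the transfection, and nonspecific siRNA against untransfected cells shows what transfection and the nonspecific siRNA went with together. No array held cells given the reagent without siRNA, so the transfection and the nonspecific siRNA cannot be told apart. The 3 differences within a line share arrays, and each is given on its own.

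In KHOS, CDK11 siRNA against nonspecific siRNA placed 2 matrix probe sets beyond 3 SD, both of MMP14 and both higher. The limits were -1.35 and 1.35. Among all kept probe sets 0.653% were higher and 0.732% lower beyond 3 SD. MMP14 read 8.77 with CDK11 siRNA, 6.87 with nonspecific siRNA and 7.86 in untransfected cells, so the difference of 1.89 was taken from a control that stood below the untransfected cells. The second probe set differed by 1.63, with 8.50, 6.86 and 7.52 on these arrays. In the third, with 8.60, 7.43 and 7.34, the difference was 1.17, and here the controls were close to each other.

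Differences above 1 log2 unit in KHOS were also found for FBN1, by 1.20, and for 3 of the 4 probe sets of TIMP3, by 1.26, 1.15 and 1.27. The brightest TIMP3 probe set read 10.57 with CDK11 siRNA, 9.42 with nonspecific siRNA and 9.17 untransfected. None of the 53 was lower by more than 1 log2 unit. The lowest was COL5A2, with 9.54 with CDK11 siRNA against 10.37 with nonspecific siRNA, a difference of -0.84. Over the 53 probe sets 17 were below 0, or 32.1%, against 48.1% of all kept probe sets, with a median of 0.27 and of 0.0096 over all.

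With nonspecific siRNA against untransfected KHOS cells, no matrix probe set lay beyond 3 SD, where 1.0% of all were higher and 0.512% lower. The differences ran from -0.99 for MMP14 to 0.94 for a COL5A1 probe set, with a median of 0.095 for the matrix and -0.0034 for all. With CDK11 siRNA against untransfected KHOS cells, 1 was beyond 3 SD, a probe set of TIMP3 that was higher by 1.92, where 0.988% of all were higher and 0.604% lower. The other 3 TIMP3 probe sets were higher by 1.58, 1.41 and 1.49. COL5A2 was the only one lower by more than 1 log2 unit, at -1.11. In this comparison 12 of 53 were below 0, or 22.6%, against 50.0% of all, and the median was 0.41 against -0.0003.

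In U-2OS, CDK11 siRNA against nonspecific siRNA placed 4 matrix probe sets beyond 3 SD, 3 higher and 1 lower, with limits of -1.07 and 1.12. Among all kept probe sets 0.976% were higher and 0.890% lower. A dim PLAU probe set was higher by 1.79, but all its U-2OS values, 5.40 with CDK11 siRNA, 3.61 with nonspecific siRNA and 4.37 untransfected, were under the limit. The brightest PLAU probe set differed by 0.25. THBS1 was higher by 1.56 in its dimmest probe set, with 7.21, 5.66 and 7.57 on these arrays, and by 0.41 in each of the brighter ones. A TIMP3 probe set under the limit in U-2OS was higher by 1.15, with 5.28, 4.13 and 6.44. For THBS1 and TIMP3 the nonspecific siRNA array was the low one, and the CDK11 siRNA array stood below untransfected cells.

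The lower one was COL5A2, at -1.22, with 4.67 with CDK11 siRNA, 5.89 with nonspecific siRNA and 5.61 untransfected in U-2OS, all under the limit. The other COL5A2 probe set differed by 0.11. Over the 53 probe sets, 19 were below 0 in U-2OS, or 35.8% against 47.3% of all, with a median of 0.16 and of 0.014 over all.

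With nonspecific siRNA against untransfected U-2OS cells, 6 matrix probe sets lay beyond 3 SD, 2 higher and 4 lower, where 0.653% of all kept probe sets were higher and 0.939% lower. MMP1 was higher by 3.82, and its signal of 10.14 with CDK11 siRNA and 10.57 with nonspecific siRNA stood against 6.75 in untransfected cells. MMP3 was higher by 1.41, with 14.17, 14.24 and 12.83 on these arrays. The proteases that are neighbours on chromosome 11 were thus higher on both transfected arrays of U-2OS. In KHOS the same difference was -0.41 for MMP1 and 0.09 for MMP3, with MMP3 near the median of the array.

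The lower ones were a TIMP3 probe set at -2.31, 2 THBS1 probe sets at -1.91 and -1.30, and COL5A1 at -1.29. COL5A1 read 6.24 with nonspecific siRNA and 7.53 untransfected. The brightest THBS1 probe set differed by -0.99, with 12.82 with nonspecific siRNA and 13.81 untransfected, and the brightest TIMP3 probe set by -1.04. Of the 53 probe sets 38 were below 0, or 71.7% against 52.7% of all, and the median was -0.34, with -0.018 over all.

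With CDK11 siRNA against untransfected U-2OS cells, 2 matrix probe sets lay beyond 3 SD, where 0.665% of all were higher and 0.951% lower. These were again MMP1, higher by 3.38, and MMP3, higher by 1.34. A TIMP3 probe set was lower, at -1.16, and a dim PLAU probe set higher by 1.02, within the limits of 3 SD. Over the 53 probe sets 31 were below 0, or 58.5% against 50.0% of all, with a median of -0.19 and of 0 over all.

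**Figure D3:**
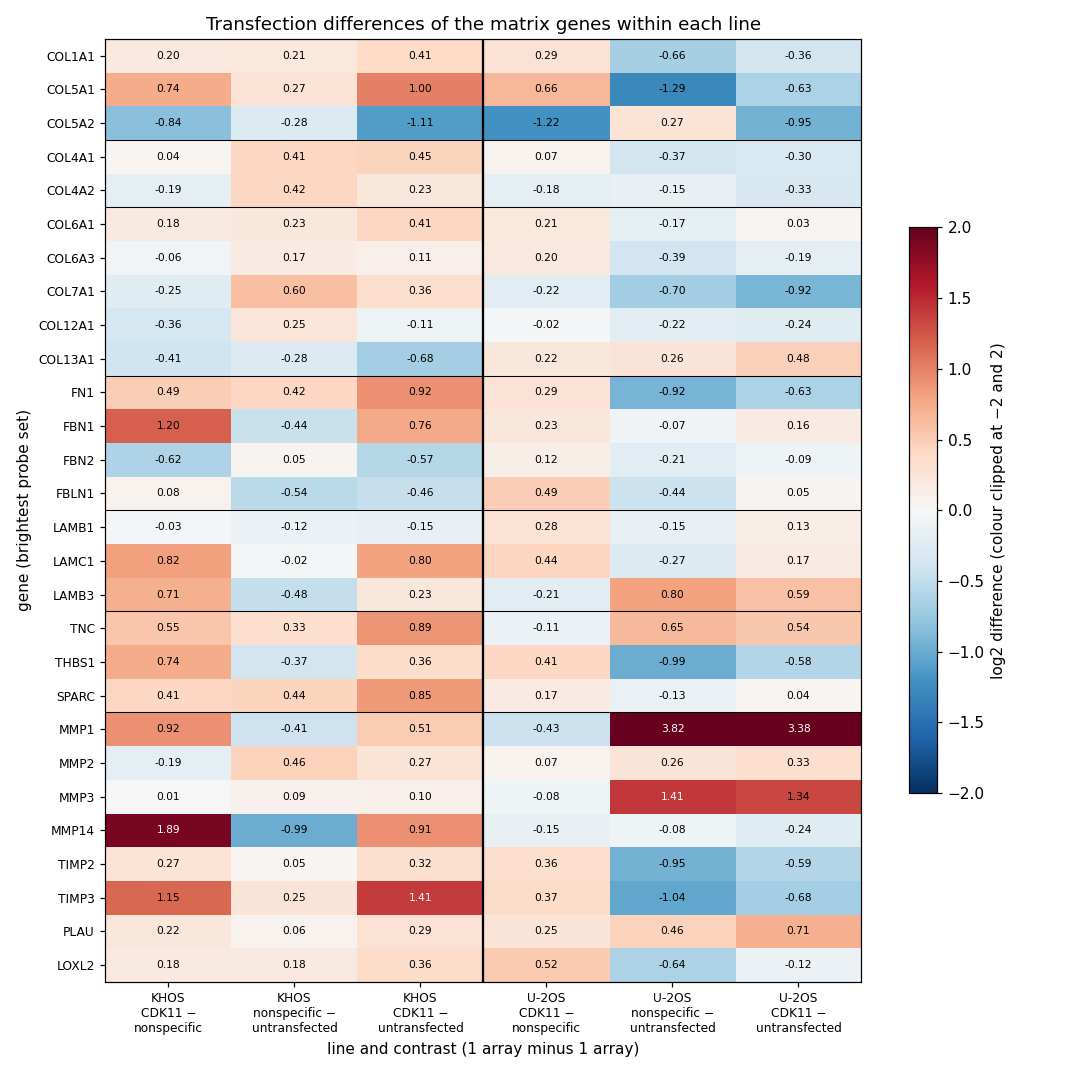
Log2 differences of 1 array minus 1 array for the brightest kept probe set of 28 matrix genes (rows, grouped by class), with 3 columns for KHOS left of 3 columns for U-2OS and red for positive differences. MMP14 with CDK11 siRNA in KHOS (1.89) and MMP1 on the transfected arrays of U-2OS (3.82 and 3.38) are the strongest cells, and 20 of 28 genes are below 0 for nonspecific siRNA against untransfected U-2OS cells.

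By class and brightest probe set, the matricellular proteins TNC, THBS1 and SPARC were all higher with CDK11 siRNA than with nonspecific siRNA in KHOS, with a median of 0.55. The second SPARC probe set went the other way, with 8.71 against 9.37, a difference of -0.66, where the brightest gave 0.41. In KHOS 7 of the 8 enzymes and inhibitors were higher by the brightest probe set, with a median of 0.25. Among them MMP3 differed by only 0.011, at values under the limit. In U-2OS the medians of these classes were 0.17 and 0.16, with 2 of 3 and 5 of 8 higher. The kept fibrillar collagens were split in both lines, with COL5A2 lower and COL1A1 and COL5A1 higher. The basement membrane collagens COL4A1 and COL4A2 differed by 0.04 and -0.19 in KHOS and by 0.07 and -0.18 in U-2OS. By the brightest probe set 19 of 28 matrix genes were above 0 for CDK11 siRNA against nonspecific siRNA in KHOS, and also 19 of 28 in U-2OS, with medians of 0.19 and 0.20, where the medians of all genes were 0.0024 and 0.0087. Over all kept probe sets 48.1% were below 0 in KHOS and 47.3% in U-2OS. The 28 include genes under the limit in the line compared.

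**Figure D4:**
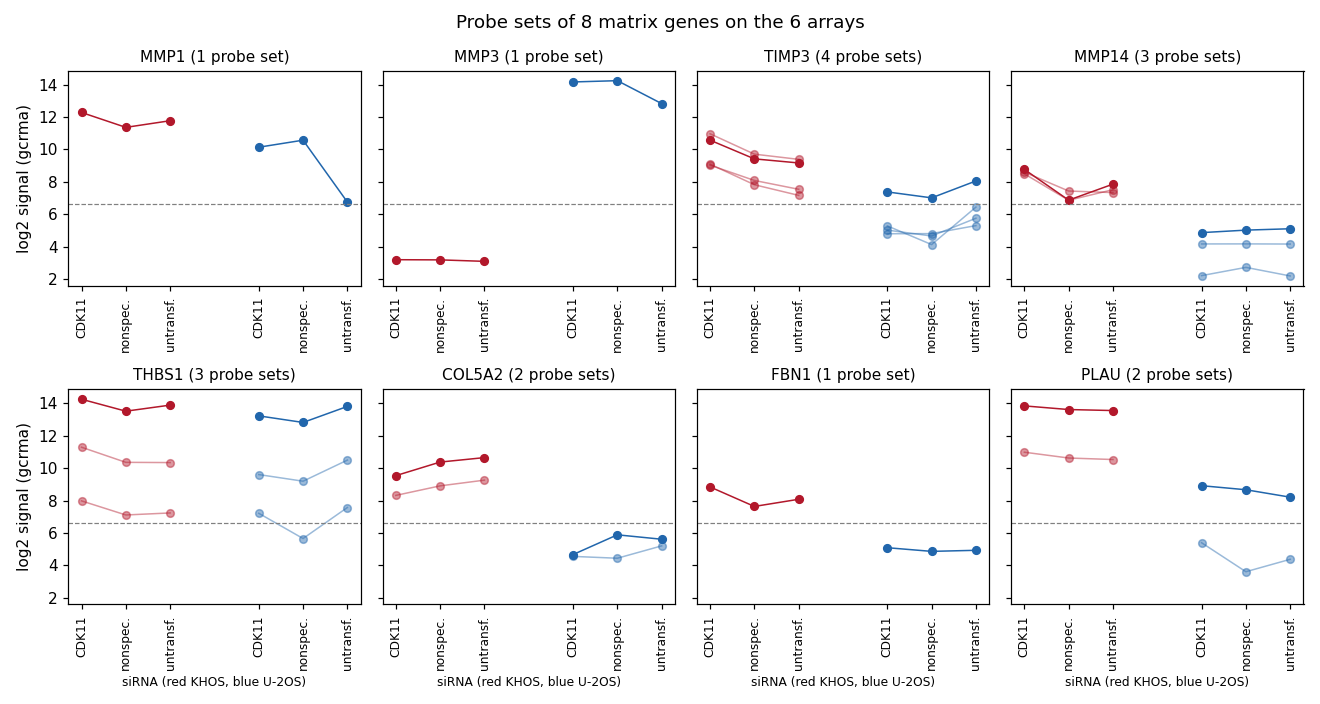
Log2 signal (vertical axis) of every kept probe set of 8 matrix genes on the arrays with CDK11 siRNA, nonspecific siRNA and untransfected cells, KHOS in red left of U-2OS in blue; the lines join the arrays of 1 probe set, the darkest line is the brightest probe set, and the dashed line is a signal of 100. MMP1 in untransfected U-2OS cells (6.75) lies far below the transfected arrays, and the 3 probe sets of MMP14 are highest with CDK11 siRNA in KHOS.

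Taking the lines as replicates of a transfection, limma passed 0 of the 53 matrix probe sets and 0% of all kept probe sets (Benjamini-Hochberg adjusted p under 0.05) in each of the 3 comparisons. For CDK11 siRNA against nonspecific siRNA 5 of the 53 had an unadjusted p under 0.05, where 2337 of all kept probe sets did, or 14.3%. The smallest adjusted p of a matrix probe set was 0.173, for COL5A2 at -1.03. For nonspecific siRNA against untransfected cells these counts were 4 of 53 and 1468, or 8.95% of all, with a smallest adjusted p of 0.538. For CDK11 siRNA against untransfected cells they were 4 of 53 and 3162, or 19.3% of all. In each comparison the matrix share was below that of all probe sets. COL5A2 again had the smallest adjusted p in the last comparison, 0.121, at -1.03. When the variance prior was allowed to follow the level, the test passed 211, 5 and 574 of all probe sets in these comparisons, and 0, 0 and 1 of the matrix. By its brightest probe set COL5A2 was lower with CDK11 siRNA than with either control in both lines, but in U-2OS all its values were under the limit.

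Among the other matrix lists, none of the 3 kept collagens lay beyond 3 SD in a comparison within a line. The lysyl oxidase LOX was higher by 1.55 with CDK11 siRNA than with nonspecific siRNA in U-2OS. Nonspecific siRNA against untransfected cells gave -1.20 for LOX in KHOS and -1.32 in U-2OS, and -1.64 and -2.45 for LOXL1 and LOXL4 in U-2OS. LOXL4 also differed by -2.67 with CDK11 siRNA against untransfected U-2OS cells. The glycoprotein EDIL3 read 6.17 with CDK11 siRNA, 3.55 with nonspecific siRNA and 7.84 untransfected in U-2OS. CCN3 was higher by 1.47 with CDK11 siRNA than with nonspecific siRNA in U-2OS. The protease ADAM19 was higher in KHOS with CDK11 siRNA by 1.61 against nonspecific siRNA and by 1.84 against untransfected cells. MMP13 read 7.89 with CDK11 siRNA, 7.24 with nonspecific siRNA and 5.47 untransfected in KHOS. FAP differed by -1.63 in KHOS and PLAT by -1.28 in U-2OS with nonspecific siRNA against untransfected cells. The FAP values in KHOS, 3.62 with CDK11 siRNA, 2.61 with nonspecific siRNA and 4.24 untransfected, were all under the limit. ADAM12 differed by 1.32 with CDK11 siRNA against untransfected U-2OS cells. Both kept osteoblast markers moved as well. RUNX2 read 5.68 with CDK11 siRNA, 4.39 with nonspecific siRNA and 7.03 untransfected in U-2OS, where the brightest probe sets of TIMP3 and THBS1 were also lowest with nonspecific siRNA. TNFRSF11B, the decoy receptor osteoprotegerin, read 9.91, 8.21 and 9.57 on these arrays of KHOS. There the brightest MMP14 probe set was also lowest with nonspecific siRNA, but another was lowest in untransfected cells. The part of RUNX2 and TNFRSF11B in the matrix differences was not tested.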

How the data were processed

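RNA of KHOS and U-2OS cells was measured on Affymetrix arrays, 1 for each of 3 conditions in each of 2 lines. The authors deposited log2 values of 54675 probe sets, made with gcrma, before their filters, and their present and absent calls were not used here. Of these probe sets 41097 had 1 gene symbol in the platform annotation, 1801 several and 11777 none, and genes were named from the first alone. Probe sets were kept when the highest of the 6 arrays was above log2 of 100, and the brightest probe set of a gene had the highest mean.

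The line difference was fitted with limma 3.58.1 in R 4.3.3, with line and transfection as additive terms, 2 residual degrees of freedom, a two-sided test and Benjamini-Hochberg adjustment at 0.05 over 16397 probe sets. The same fit gave the siRNA differences over both lines. Within a line a difference was counted beyond 3 SD over the kept probe sets. The fit was tested on simulated data. Python 3.11.15, pandas 2.3.3, numpy 2.4.6 and matplotlib 3.10.9 were used. Values on every array are given for up to 12 genes higher and 12 lower in KHOS past the test, and for those beyond 3 SD, or beyond 1 log2 unit in the brightest probe set, within a line. Up to 2 genes in each direction are named from every other matrix list, and genes of those lists beyond 3 SD were named after their values were seen. The lists were other collagens, collagen folding, processing and crosslinking, other matrix glycoproteins and proteoglycans, other matrix proteases and inhibitors, and markers of the osteoblast lineage, mesenchymal, epithelial, endothelial and blood cells. The genes and lists were chosen with earlier results of these data known. Alternatives covered the filter, the normalization, the probe set rule, the variance prior, the transfection term, the threshold and the arrays.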

Additional observations from a re-analysis of the deposited data

Results flagged for a closer look

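TIMP3, the inhibitor bound to the matrix, had opposite differences in the lines with CDK11 siRNA against untransfected cells. In the probe set with the widest gap it was higher by 1.58 in KHOS and lower in U-2OS, at -1.16, each from 1 array against 1 array. The other 3 probe sets gave 1.41, 1.92 and 1.49 in KHOS, against -0.68, -0.50 and -0.73 in U-2OS, and 3 of the 4 were under the limit on every U-2OS array. This difference between the lines was not tested. No group held enough samples to look for a single array far from the rest.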

How the results depend on the processing

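The number of arrays limits the precision, and the line test rests on 2 residual degrees of freedom. P-values measure only the spread of the line difference over the 3 transfection states. Of the 53 matrix probe sets 41 passed the line test. With 1 probe set per gene 25 of 28 passed, and no gene changed its call. The count of 41 ran from 35 to 48 with 1 array left out, and from 35 to 45 under the other settings with a test. Leaving out 1 array left the other array of that transfection state without a pair, so the count was the same for either line. Without the filter on low values, the calls of COL1A1, FBLN1, LAMC1, THBS1, SPARC, MMP1, TIMP3 and LOXL2 were lost, and without the transfection term, which pairs the lines by transfection state, those of LAMC1 and THBS1 (count 41). LAMC1 was also lost without either CDK11 siRNA array (adjusted p = 0.0502) or either nonspecific siRNA array (adjusted p = 0.0549). No called difference changed its sign under any setting, though LAMC1 has probe sets past the test in both directions. With the untransfected arrays alone, which allow no test, the difference moved beyond the spread between arrays for 22 of 28 genes. It was -1.41 for COL1A1, -1.11 for SPARC, 0.08 for THBS1, 0.36 for LAMC1, 0.34 for LOXL2, 1.11 for TIMP3 and 5.02 for MMP1, and the uncalled COL5A1, FN1 and TIMP2 were below 0, at -0.05, -0.64 and -0.28. Repeated quantile normalization also took the call of THBS1 (adjusted p = 0.0605). Centring on the median took 0.1533 log2 units from every line difference. COL5A1 passed when only probe sets over 8 were kept (adjusted p = 0.0458) and with the prior that follows the level (adjusted p = 0.0156). Over both lines, no setting gave a matrix call for any siRNA comparison except that prior, with 1 for CDK11 siRNA against untransfected cells, and leaving out any 1 array gave 0.

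Within a line the counts depended on the threshold and the filter. For CDK11 siRNA against nonspecific siRNA in KHOS the count of 2 was 9 with no filter, 4 with a limit of 8, 1 with 1 probe set per gene, and 7 with a threshold of 1 log2 unit, of 2.5 SD or of the median absolute deviation. In U-2OS the count of 4 was 1 with 1 probe set per gene. For nonspecific siRNA against untransfected KHOS cells the count of 0 was 7 with no filter and 2 with 2.5 SD or the median absolute deviation. In U-2OS the count of 6 was 17 with no filter, 3 with 1 probe set per gene, 10 with 1 log2 unit and 16 with the median absolute deviation. For CDK11 siRNA against untransfected KHOS cells the count of 1 was 9 with no filter, 2 with a limit of 8, 0 with 1 probe set per gene, 9 with 1 log2 unit, 5 with 2.5 SD and 6 with the median absolute deviation. In U-2OS the count of 2 was 10 with no filter, 4 with 1 log2 unit and 7 with the median absolute deviation. With no filter, probe sets under the limit were counted too.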
